A study of Mus musculus with 4 samples.

Results

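The 5 genes described here are Zfhx3, Glis3, Trps1, Zeb1 and Zeb2, which encode zinc finger transcription factors and lie in gene bodies of 133.9 to 682.3 kb. Their members were the peaks of 5-hydroxymethylcytosine (5hmC) to which the authors had given 1 of these gene symbols: 95 of 56695 peaks in the chondrocyte list and 2 of 1050 in the chondroprogenitor list. The genes were picked with these lists in view, so the number of peaks in a gene is a description and carries no test. Both lists came from ATDC5, a mouse chondrogenic cell line. The chondroprogenitor stage was sampled at day 0 (2 libraries), and the chondrocyte stage after insulin, transferrin and selenite had been added to the same serum and ascorbic acid medium (2 libraries, labelled day 19 and day 20). Fragments carrying 5hmC were captured and sequenced, and the authors deposited 1 list of 10-fold enriched peaks per stage, made from merged libraries. The labels say neither what the 10-fold is relative to nor whether the day 19 library entered the day 20 list. With 1 list per stage there is no replicate spread and no test between stages, and the lists hold positions without peak heights, read depth or expression, so the labelled stage could not be checked against marker genes. The day 20 list is far longer and its peaks are wider (median 591 bp against 134 bp), so a peak seen at day 20 alone cannot be read as a gain of 5hmC.

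5hmC is made from 5-methylcytosine by TET dioxygenases and is commonly found along the bodies of transcribed genes and at enhancers, and less at unmethylated CpG-rich promoters. The 5 proteins bind DNA through zinc fingers and act largely in development. Zfhx3, also called Atbf1, carries many zinc fingers together with homeodomains. Glis3 is a Krüppel-like factor related to the Gli proteins of the hedgehog pathway and is known for its part in pancreas, thyroid and kidney. Trps1 is an atypical GATA protein that represses transcription and is expressed in the growth plate, and its human counterpart is mutated in tricho-rhino-phalangeal syndromes. Zeb1 and Zeb2 are homeodomain-containing repressors that silence E-cadherin in epithelial-mesenchymal transition, and mice without Zeb1 have skeletal defects.

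All 5 genes carried day 20 peaks, and they differed widely in number. By the authors' symbols Glis3 had 45, Zfhx3 22, Trps1 15, Zeb2 9 and Zeb1 4. Counted by position in the RefSeq gene body, Zfhx3 had 51, Glis3 45, Trps1 13, Zeb2 10 and Zeb1 4. Of all protein-coding genes 39.7% had at least 1 day 20 peak by symbol and 40.5% by position. By position the share was 82.1% among the 2429 that are longer than 100 kb, so the presence of a peak in 5 long genes chosen from this list shows nothing further. Only Zfhx3 carried day 0 peaks, against 1.76% of all protein-coding genes by position (1.62% by symbol) and 8.03% of those over 100 kb. Between the first and the last peak of each gene the day 20 list held 0 unassigned peaks and 0 peaks with another symbol. The absence of unassigned peaks is the usual case: of 2611 symbols with at least 4 day 20 peaks on 1 chromosome, 2608 (99.9%) had none in their span.

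**Figure D1:**
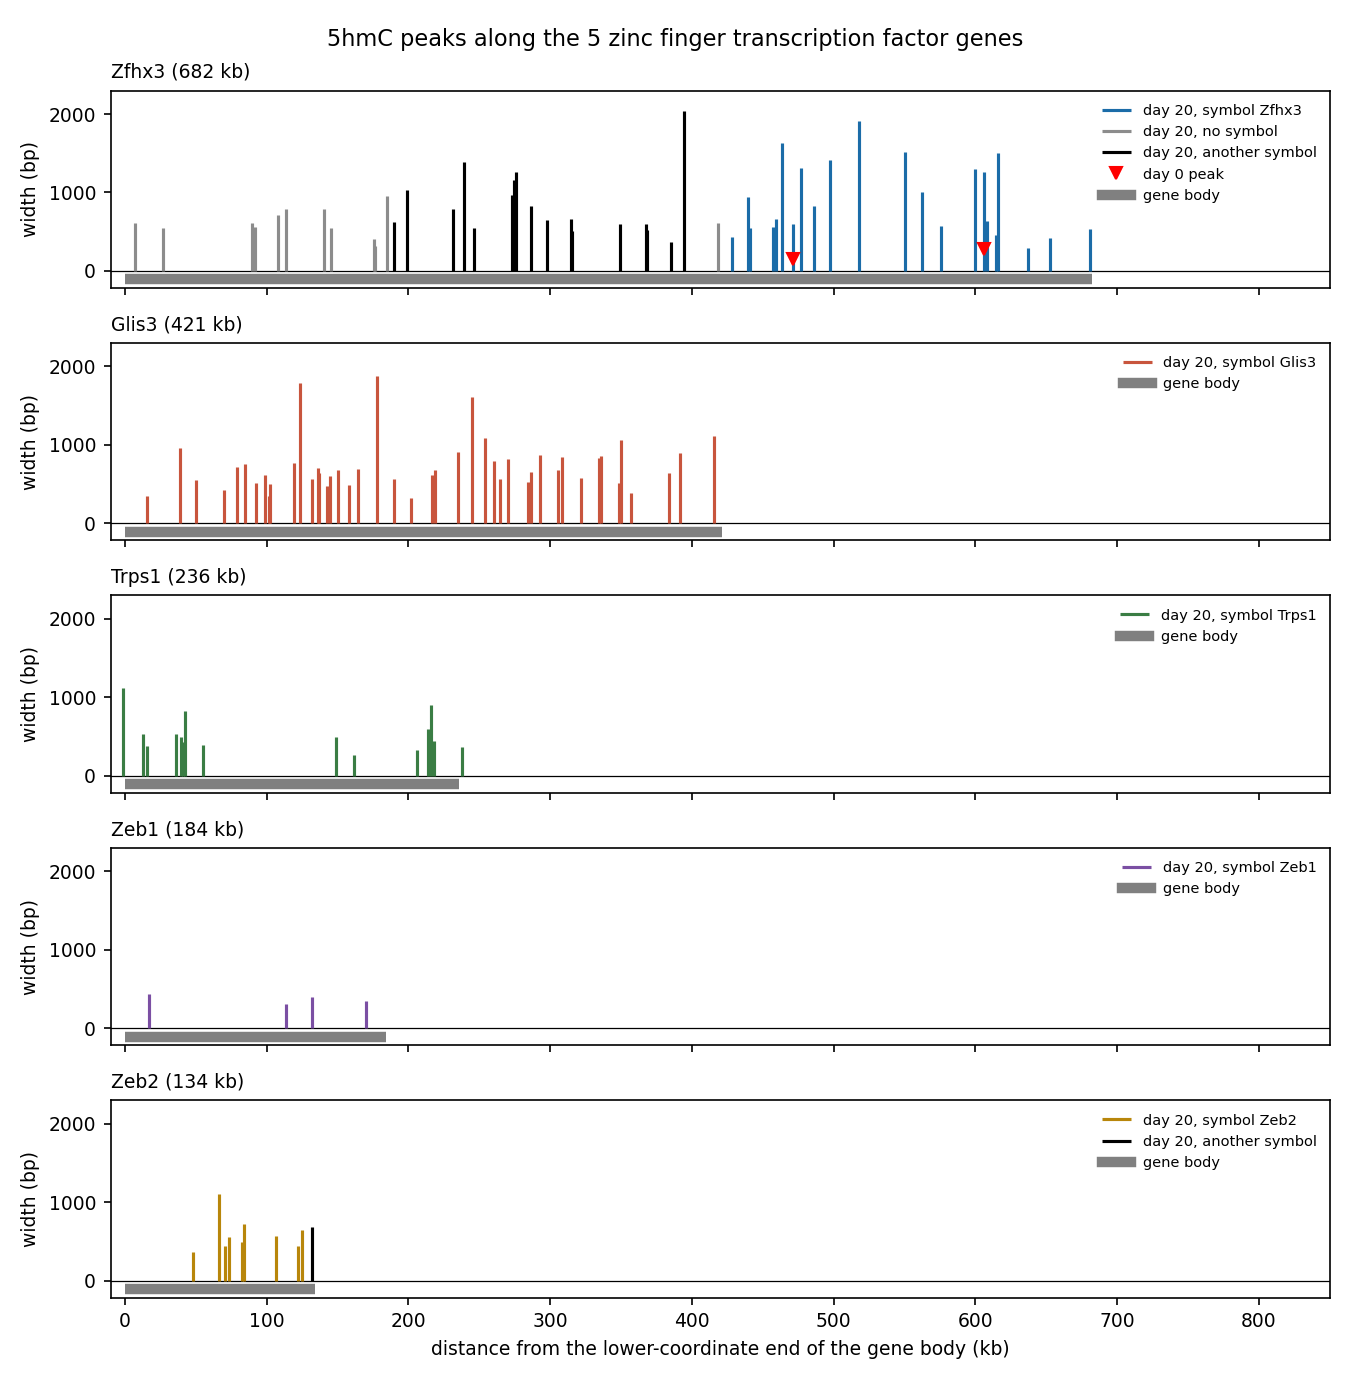
Day 20 peaks (vertical lines, height equal to peak width in bp) and day 0 peaks (red triangles, placed at their width) along each gene, drawn to 1 scale from the lower-coordinate end of the gene body in kb. In Zfhx3 the peaks with its own symbol fill the right part only, while 12 peaks without a symbol and 17 with another symbol fill the left part. Glis3 is filled from end to end, and Trps1 and Zeb1 have long empty stretches.

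Zfhx3 spans 682.3 kb on chromosome 8 (108279311 to 108961636, GRCm38). The stretch from the first to the last of the 22 peaks with its symbol, 108707192 to 108960653, takes 37.1% of the gene body, near its upper end. RefSeq lists 6 transcripts for the gene, 1 curated and 5 predicted. The promoter table gives it 1 start site, at 108714644 on the plus strand, well inside the gene body. Before that site lie 435.3 kb with 30 peaks, a density of 6.89 per 100 kb. Of these 30, 12 had no symbol, 1 had the symbol Zfhx3 and 17 had the symbol Mir466g. After the site lie 247.0 kb with 21 peaks, all with the symbol Zfhx3, a density of 8.50 per 100 kb. Most of the peaks in the longer stretch before the site are thus missing from a count by symbol.

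The 17 peaks with the symbol Mir466g ran from 108468987 to 108674790, over 205.8 kb inside Zfhx3. The gene table places the miRNA gene Mir466g on chromosome 2 (10514595 to 10514674) and nowhere on chromosome 8. How the authors' annotation arrived at the symbol was not tested. These peaks had a median width of 662 bp, and 1 of them, 2033 bp wide (108672758 to 108674790), was wider than any peak with the symbol of a member. The tightest pair in the gene also carried this symbol, with 4 bp between the peak at 108593712 to 108594373 and the peak at 108594378 to 108594883. The gene body contains 8 long noncoding RNA genes, of which 6 overlapped a day 20 peak, with 4 peaks in Lncbate1, and the miRNA gene Mir3108, which overlapped none.

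The bases before the Zfhx3 start site are shown because this CpG-rich stretch lay between peaks and held none itself. The 250 bases upstream (RefSeq, GRCm38.p6, chr8:108714394-108714643, plus strand) are printed with CpG dinucleotides in capitals:
Zfhx3: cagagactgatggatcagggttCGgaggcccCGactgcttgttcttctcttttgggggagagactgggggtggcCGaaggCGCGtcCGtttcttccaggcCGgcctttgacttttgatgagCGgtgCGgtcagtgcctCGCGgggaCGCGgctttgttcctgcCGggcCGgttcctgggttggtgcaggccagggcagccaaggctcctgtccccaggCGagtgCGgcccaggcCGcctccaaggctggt
These 250 bases hold 18 CpG, and the 300 bp window that also takes in 50 bases after the start holds 21, more than 75.2% of all promoter windows. The nearest day 20 peak, at 108718485 to 108719431, lay 3.84 kb inside the gene. The only peak with the symbol Zfhx3 before the start site (108707192 to 108707624) was 433 bp wide.

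Both day 0 peaks of the group were in Zfhx3, and both lay wholly inside day 20 peaks. The day 0 peak at 108750927 to 108751076 was 150 bp wide and sat in a day 20 peak of 602 bp (108750668 to 108751269), with centres 33 bp apart. The day 0 peak at 108885545 to 108885826 was 282 bp wide and sat in a day 20 peak of 1262 bp (108885065 to 108886326), with centres 10 bp apart. Both positions lie after the start site, in the stretch with the symbol Zfhx3. The day 20 peaks were 4.01 and 4.48 times as wide as the day 0 peaks inside them, against a median ratio of 4.71 over all 520 shared positions of the day 0 list. Over the whole day 0 list, 49.5% of peaks overlapped a day 20 peak. Of 26 protein-coding genes over 100 kb with at least 2 day 0 peaks, 11 had all of them at positions shared with day 20, and Zfhx3 is 1 of these 11. Seen from the day 20 list, 2 of the 95 peaks of the 5 genes were shared (2.11%, Wilson 95% interval 0.579 to 7.35%), against 0.841% of the whole list (0.769 to 0.920%), which lies within that interval.

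Glis3 spans 421.4 kb on chromosome 19 (28258851 to 28680265) and is transcribed from the minus strand, so its start is at the higher coordinate. Its 45 peaks, every one with the authors' symbol Glis3, ran from 28274509 to 28675057 and spanned 95.05% of the gene body. When the gene was cut into 10 equal stretches, each held between 2 and 8 peaks. The median gap between neighbours was 6.97 kb, and the widest gap, from 28616282 to 28642297, was 26.0 kb or 6.17% of the gene. The tightest pair lay 11 bp apart (28394722 to 28395428 and 28395440 to 28396077). The widest peak was 1876 bp (28435883 to 28437758) and the narrowest 320 bp (28460216 to 28460535). Day 20 peaks covered 7.93% of the gene, a share that ranked 109 among the 2429 protein-coding genes over 100 kb, whose median was 1.47%.

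The peaks of Glis3 stopped short of its start. The start site in the promoter table is at 28680077, and the nearest peak with its symbol (28673944 to 28675057, 1114 bp) lay 5.02 kb inside the gene. A closer peak, 2.49 kb away on the other side (28682571 to 28683069), had the symbol D930032P07Rik, a long noncoding RNA gene whose body overlaps the 5′ end of Glis3. The window of 300 bp at the start held 32 CpG and 76.3% G and C, with more CpG than 90.5% of all promoter windows. The 62 bases of it that lie beyond the annotated gene body hold fewer CpG for their length than the whole window, which held no peak. They are printed here (RefSeq, GRCm38.p6, chr19:28680266-28680327, minus strand, CpG in capitals):
Glis3: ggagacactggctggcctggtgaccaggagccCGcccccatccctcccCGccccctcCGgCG

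Trps1 spans 235.9 kb on chromosome 15 (50654757 to 50890631). Of its 15 peaks 13 overlapped the gene body, and the first (50653239 to 50654356) and the last (50892083 to 50892453) lay just outside it on either side. The first was also the widest, with 1118 bp, and the only one of at least 1 kb. The narrowest was 268 bp (50816092 to 50816359). The peaks fell into groups towards both ends. A gap of 93.3 kb, from 50710007 to 50803333, took 39.6% of the gene body, and 4 of 10 equal stretches of the gene held no peak. Of the 14 gaps between neighbours 3 were shorter than 1 kb, the tightest being 703 bp between 50695543 to 50695976 and 50696680 to 50697500. No day 0 peak lay in the gene.

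Zeb2, the closest relative of Zeb1, is the shortest gene of the group, with 133.9 kb on chromosome 2 (44983512 to 45117442, minus strand). Its 9 peaks lay in 77.4 kb, from 45031558 to 45108907, and ranged from 363 bp (45031558 to 45031920) to 1099 bp (45049250 to 45050348). The first 3 of 10 equal stretches by coordinate, which form the 3′ part of the gene, held no peak, and the lowest peak began 48.0 kb above the lower edge of the gene. The widest gap between its peaks was 21.9 kb (45067677 to 45089610) and the narrowest 642 bp (45065820 to 45066318 and 45066961 to 45067677). A further peak in the gene body (45115521 to 45116204) had the symbol Gm13476. It was the peak nearest to the outermost Zeb2 start site, at 45117442, with 1.24 kb between them. The 250 bases before that site (RefSeq, GRCm38.p6, chr2:45117443-45117692, minus strand, CpG in capitals) are shown as the contrast to Zfhx3 and Glis3, since they are poorer in CpG and also held no peak:
Zeb2: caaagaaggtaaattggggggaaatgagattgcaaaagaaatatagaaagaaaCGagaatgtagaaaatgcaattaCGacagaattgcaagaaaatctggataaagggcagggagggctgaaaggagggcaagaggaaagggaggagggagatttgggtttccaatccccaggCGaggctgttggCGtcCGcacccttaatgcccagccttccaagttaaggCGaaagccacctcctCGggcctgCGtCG
The stretch holds 9 CpG. The other 3 Zeb2 start sites lay at 45113279, 45113253 and 45110277, with 8, 8 and 19 CpG in their windows. Their nearest peaks were 2.24, 2.27 and 1.37 kb away.

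Zeb1 and Zeb2 transcripts are known targets of the miR-200 family, whose members fall into 2 seed groups. The mature 3p sequences (RefSeq) are shown with the seed, bases 2 to 8, in capitals, so that the 2 groups can be told apart:
miR-200b-3p: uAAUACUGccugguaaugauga
miR-200c-3p: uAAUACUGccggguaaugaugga
miR-429-3p: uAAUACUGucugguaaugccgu
miR-200a-3p: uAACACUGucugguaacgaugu
miR-141-3p: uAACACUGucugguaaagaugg
None of the 5 hairpins overlapped a day 20 peak, and 3.99% of all 1003 hairpins in the table did. The nearest day 20 peaks were 3.07 kb from Mir429, 4.07 kb from Mir200a and 4.85 kb from Mir200b on chromosome 4, all the same peak (156050185 to 156050831), and 4.59 kb from Mir141 and 4.86 kb from Mir200c on chromosome 6. A day 20 peak within 5 kb was present for 33.4% of all hairpins. No day 0 peak lay within 100 kb of the 5.

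Zeb1 was the sparsest of the group. Its 184.1 kb on chromosome 18 (5591327 to 5775468) held 4 peaks: 5607848 to 5608285 (438 bp), 5705006 to 5705312 (307 bp), 5723080 to 5723480 (401 bp) and 5761186 to 5761537 (352 bp). All 4 were narrower than the median of the day 20 list. A gap of 96.7 kb between the first and the second took 52.5% of the gene body, and even the tightest pair was 17767 bp apart. Together the 4 peaks covered 0.814% of the gene, below the median of 1.47% for genes over 100 kb.

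The difference between Zeb1 and Zeb2 is a description of a pair in 1 list. Per 100 kb of gene body Zeb2 held 7.47 peaks and Zeb1 2.17, and the median width was 562 bp in Zeb2 (95% interval 436 to 717 bp) and 376.5 bp in Zeb1. The 4 widths of Zeb1 are too few for a 95% interval of their median, and with a range of 307 to 438 bp they overlap the widths of Zeb2, which ranged from 363 to 1099 bp.

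Peak widths overlapped between the genes and with the list. Over the 95 peaks the median was 607 bp (quartiles 477.5 and 849.5 bp), beside 591 bp (458 and 783.5 bp) for the whole day 20 list. The 22 peaks with the symbol Zfhx3 had a median of 744 bp (95% interval 550 to 1317 bp), and 9 of them were at least 1 kb wide (40.9%, Wilson 95% interval 23.3 to 61.3%). All 51 peaks in the Zfhx3 gene body had a median of 649 bp (598 to 825 bp), and 14 were at least 1 kb wide (27.5%, 17.1 to 40.9%). In the whole list 12.4% were (12.1 to 12.7%). Glis3 had a median of 674 bp (571 to 770 bp), below that of Zfhx3 by symbol and above it by gene body, with 6 of 45 peaks of at least 1 kb (13.3%, 6.26 to 26.2%). Trps1 had a median of 488 bp (377 to 595 bp). The intervals of Zfhx3 by symbol, Glis3, Zeb2 and Trps1 overlap one another and hold the list median. The interval over all 51 peaks in the Zfhx3 gene body lies just above the list median and just above the interval of Trps1. Among the 2612 symbols with at least 4 day 20 peaks, ordered by the median of their own peaks from the widest down, Zfhx3 ranked 653, Glis3 956, Zeb2 1664, Trps1 2143 and Zeb1 2579. In Zfhx3 the median was 829 bp (564 to 1317 bp) after the start site and 617.5 bp (556 to 783 bp) before it, with overlapping intervals. Neighbouring peaks of 1 gene lay under 1 kb apart in 11 of 90 pairs (12.2%, Wilson 95% interval 6.96 to 20.6%): 4 pairs in Glis3, 3 in Zfhx3, 3 in Trps1 and 1 in Zeb2. Among all neighbours on a chromosome in the day 20 list the share was 6.14%. Those pairs also include the ones that span the DNA between genes. The genes were picked with this list in view, and peaks in a densely peaked gene lie closer together. The shares are thus not on equal terms, and the spacing is a description only.

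**Figure D2:**
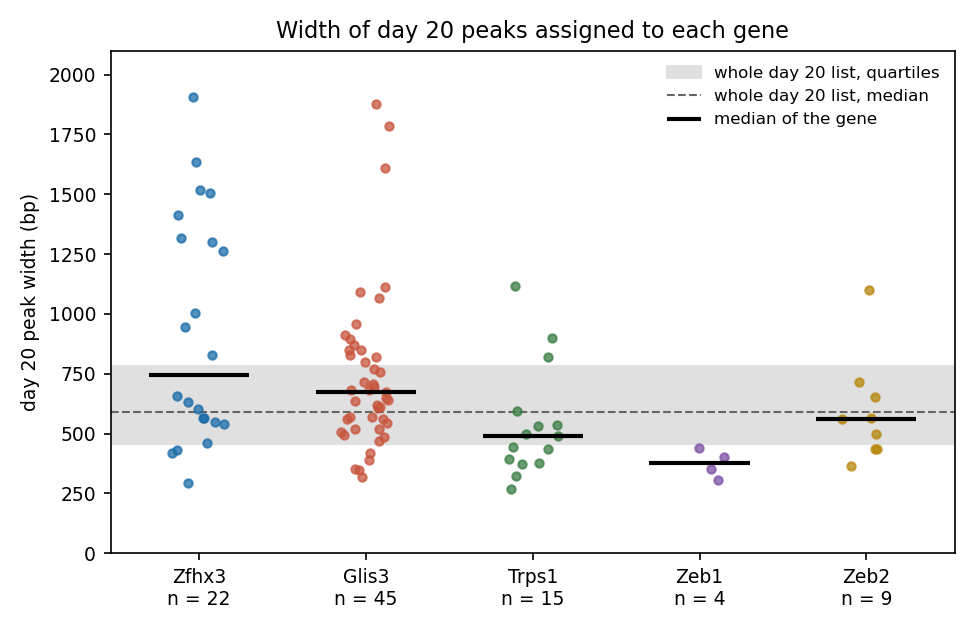
Width in bp of every day 20 peak with the symbol of each gene (points), the median of the gene (black bar), and the median and quartiles of the whole day 20 list (dashed line and grey band). The 4 peaks of Zeb1 all lie below the band, and 9 of 22 peaks of Zfhx3 reach 1000 bp or more.

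A longer gene offers more room for peaks, so the counts were also set per length. Per 100 kb of gene body Glis3 held 10.7 peaks, Zfhx3 7.47, Zeb2 7.47, Trps1 5.51 and Zeb1 2.17. The median over protein-coding genes longer than 100 kb was 2.71 (quartiles 0.703 and 5.56). By this density Glis3 ranked 54 among those 2429 genes, Zfhx3 300, Zeb2 301, Trps1 616 and Zeb1 1348. Zfhx3 and Zeb2 thus had the same density by gene body although Zfhx3 is the longer gene and held 51 peaks to 10. Over the span of the peaks with its own symbol, Zeb2 had 11.6 per 100 kb and Zfhx3 8.68. By the number of peaks Zfhx3 ranked 4 and Glis3 8. Among the genes whose length was within 10% of the member's, none of 34 held more peaks than Zfhx3 (median 7) and none of 125 more than Glis3 (median 10). For Zfhx3 this depends on the range chosen: Foxp1, a shorter gene of 597.4 kb just outside it, held 59 peaks (9.88 per 100 kb). For Trps1 58 of 234 held more (median 7), for Zeb2 50 of 414 (median 4) and for Zeb1 152 of 274 (median 5).

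**Figure D3:**
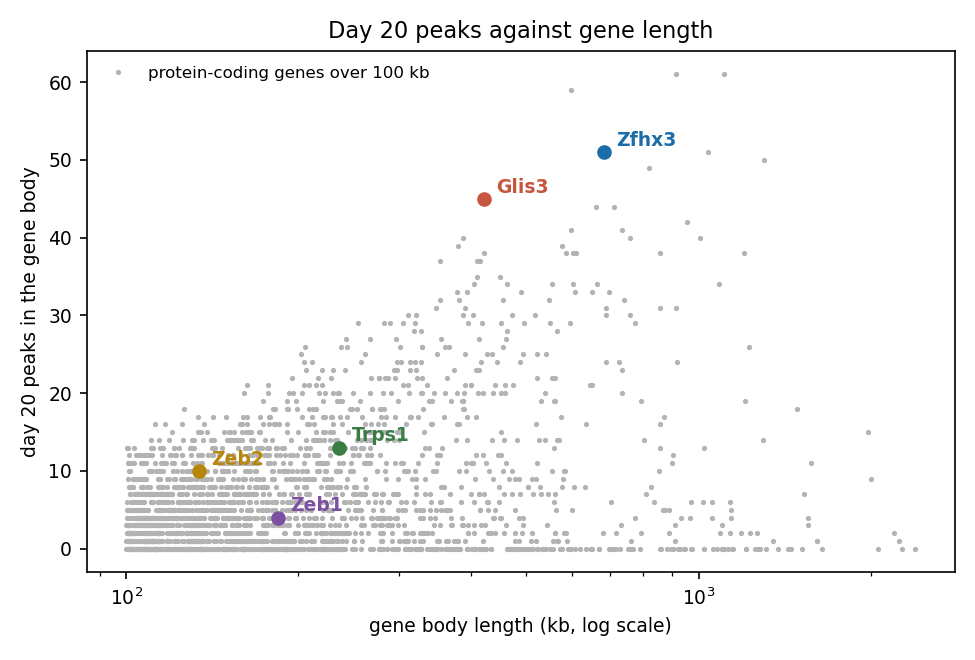
Day 20 peaks in the gene body against gene body length in kb (log scale) for 2429 protein-coding genes over 100 kb (grey), with the 5 genes in colour. Zfhx3 (51 peaks) and Glis3 (45) stand near the upper edge for their length, and Zeb1 (4) lies within the cloud.

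Of the 5 genes 4 were more densely peaked than the DNA beside them. In the 200 kb on each side Glis3 had 4.25 peaks per 100 kb, so the gene body was 2.51 times as dense. Of those flanking peaks 2 lay at lower and 15 at higher coordinates, which is the side of its start. Zfhx3 had 3.25 per 100 kb in its flanks (body 2.30 times as dense), Trps1 2.50 (2.20 times) and Zeb2 4.25 (1.76 times). Zeb1 was the exception, with 3.75 in the flanks and 2.17 in the body. Over all protein-coding genes longer than 100 kb the median was 2.71 in the body and 2.75 in the flanks, and the body was the denser in 49.9%. The flanks can hold parts of other genes. The 5 genes were picked with this list in view, so the comparison of body and flanks is a description only.

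**Figure D4:**
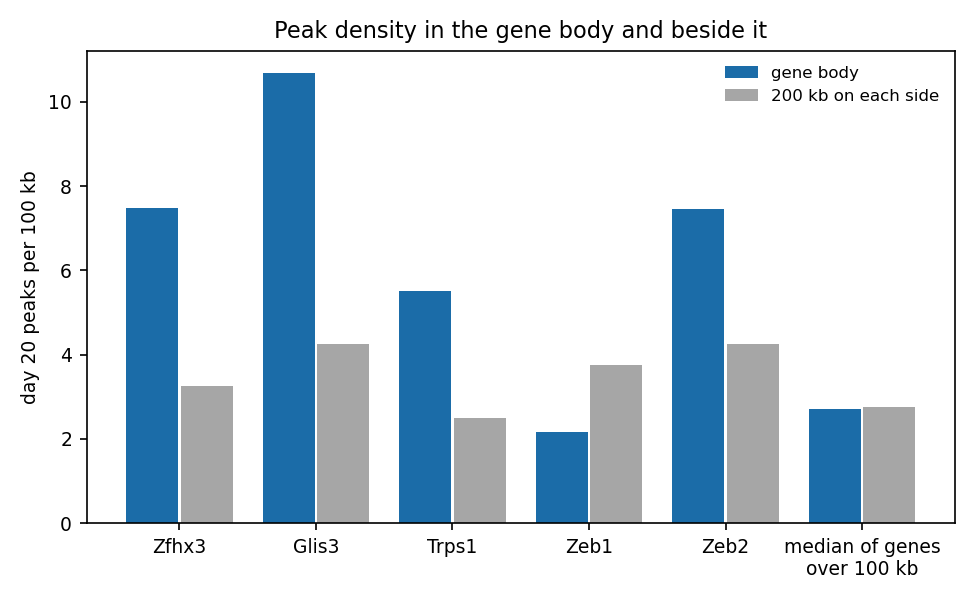
Day 20 peaks per 100 kb in the gene body (blue) and in the 200 kb on each side of it (grey) for each gene, with the medians over 2429 protein-coding genes longer than 100 kb at the right. The gene body is higher in Zfhx3, Glis3, Trps1 and Zeb2, and lower in Zeb1.

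None of the start sites of the 3 genes in the promoter table overlapped a peak. The table matched Zfhx3 and Glis3 with 1 window each and Zeb2 with 4. A day 20 peak overlapped 4.7% of all 32851 windows of 300 bp, and a day 0 peak 0.0457%, so 0 of 6 is the usual case. For day 20 the share differed with CpG content: it was 2.14% in windows with 20 or more CpG (Wilson 95% interval 1.85 to 2.46%), the class of Zfhx3 and Glis3, and 9.22% in windows with 5 to 9 CpG (8.52 to 9.97%), the class of 3 Zeb2 windows. All 6 start sites had a day 20 peak within 1.24 to 3.84 kb, while the median distance over all windows was 12.2 kb. In the classes of these windows the median was 8.44 kb (20 or more CpG), 10.7 kb (10 to 19) and 9.17 kb (5 to 9). Of the 6 sites 4 belong to Zeb2, and the genes were picked with this list in view, so the distances are a description only. The E-box bound by Zeb proteins (CACCTG, or CAGGTG on the other strand) was in none of the 6 windows and in 20.2% of all windows, which says only that these letters are not in these 300 bp.

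**Figure D5:**
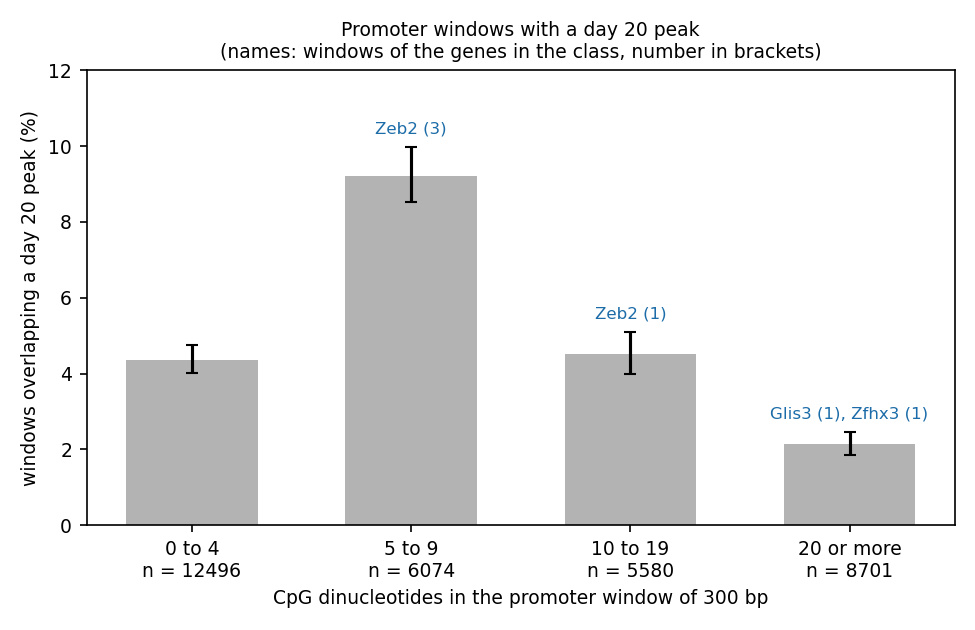
Share of promoter windows of 300 bp (in %) that overlap a day 20 peak, by the number of CpG in the window, with Wilson 95% intervals (error bars) and the number of windows below each class. The names mark the classes that hold the 6 windows of Zfhx3, Glis3 and Zeb2, none of which overlapped a peak.

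Relatives and partners of the 5 genes were taken from 9 lists with 51 genes in all. A day 20 peak in the gene body was present in 35 of 51 (68.6%, Wilson 95% interval 55.0 to 79.7%), against 40.5% of all protein-coding genes. The listed genes have a median length of 32.1 kb, against 17.1 kb, so the shares are not on equal terms. All 11 that are longer than 100 kb had a peak (Wilson 95% interval 74.1 to 100%). Of all protein-coding genes of such length 82.1% had one, which lies within that interval. A day 0 peak was present only in Sox9, the master factor of cartilage. In the Glis and Gli family Glis1 held 21 peaks in 208.4 kb (10.1 per 100 kb, close to the 10.7 of Glis3), Gli2 19 and Gli3, a hedgehog effector, 13, while Gli1 held 1 and the short Glis2 none in its body. Zfhx4, the long relative of Zfhx3, held 4 in 197.6 kb (2.02 per 100 kb), and Zfhx2 held none. In the GATA family, whose DNA-binding finger Trps1 shares, 5 of 6 genes had a peak: Gata2 had 3, Gata3 had 2, and Gata4, Gata5 and Gata6 had 1 each.

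Of the factors of epithelial-mesenchymal transition beside the Zeb genes, Snai2 and Twist2 held 1 peak each, and Snai1, Snai3 and Twist1 none in the gene body. Among corepressors and SMAD partners of the Zeb proteins 6 of 8 had a peak, led by Smad3 with 13 (11.7 per 100 kb), and Ctbp2, Kdm1a and Smad2 had 4 each. Among known Zeb targets 5 of 8 had a peak, with 4 in Cdh1, the E-cadherin gene, and 2 each in Cdh5, Ocln and Vim. Cdh2, the N-cadherin gene, held 1 peak in 220.4 kb. Of the growth plate genes around Trps1 7 of 8 had a peak: Runx2, a driver of hypertrophy, held 28, the histone deacetylase gene Hdac4 14 and Gli3 13, and Ihh had none. For Zfhx3 the list of partners had 3 of 5 with a peak (Esr1 with 17, Runx3 with 6 and Myb with 1). For Glis3 it had 3 of 5 (Wwtr1 with 11, Sufu with 8 and Itch with 2). Of all protein-coding genes 40.5% had a peak. That share lies within the Wilson intervals of the Zeb targets (30.6 to 86.3%) and the partners of Zfhx3 and Glis3 (23.1 to 88.2%). It lies below the intervals of the growth plate genes (52.9 to 97.8%) and the corepressors and SMAD partners (40.9 to 92.9%). The interval of the GATA family (43.6 to 97.0%) also lies above it. These lists have median lengths of 38.9, 61.5 and 24.1 kb in that order, against 17.1 kb over all, so the shares are not on equal terms.

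The genes most like each member were sought among protein-coding genes of a length within 10% and with the same number of day 0 peaks, by the smallest difference in day 20 peaks, a likeness over 2 lists only. For Glis3 they were Babam2 (40 peaks) and Pdzd2 (39). For Zfhx3 only 2 genes qualified, Cdkal1 (34) and Alk (23). Trps1 was matched by Ccbe1 and Rcan2 (13 each), Zeb2 by Dclk2 and Tspan18 (10 each) and Zeb1 by Kcnj3 and Pcdhga1 (4 each).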

How the data were processed

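Each deposited list gave peak positions in base pairs beside a gene symbol and a transcript accession. Per the file headers, the authors listed peaks with 10-fold enrichment in the merged samples of each stage. Per the submitters' processing notes the build was GRCm38 (mm10), and the tools MACS 1.4.2, BWA, cutadapt and FastQC appear there without their settings. Of 56698 day 20 entries, 3 had no readable end and were left out. The 5 genes, the lists of relatives and the choice of comparisons were made with earlier results of these data known. The miRNA family, the flanks of 200 kb, the split of Zfhx3, the E-box and the CpG classes were chosen after values were seen.

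RefSeq gene bodies of GRCm38.p6 were used (21900 protein-coding genes), and promoter windows (250 bases before to 50 after a start) came from RefSeq sequences of the same build. Sequence under the peaks was not used here. A peak belonged to a gene body, and peaks of the 2 lists counted as shared, at an overlap of at least 1 bp. Named genes were the 5 members with their extreme peaks, up to 3 genes per list with the most day 20 peaks, genes with a day 0 peak, and the 2 most like each member. List members with fewer or no peaks, and Foxp1, were named after their values were seen. Shares have Wilson 95% intervals and medians order-statistic 95% intervals, where at least 6 values allow one. Both treat peaks or genes as independent and cover counting error only. No test was run. Counting was tested on simulated data: peak numbers were recovered in 67 of 67 genes and 60 of 60 planted shared peaks were found. Versions were matplotlib 3.10.9, scipy 1.17.1, pandas 2.3.3, numpy 2.4.6 and Python 3.11.15.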

Additional observations from a re-analysis of the deposited data

How the results depend on the processing

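Alternatives covered how peaks were assigned to genes, merging of peaks under 1 kb apart, peak width and the overlap that counts as shared. Of 24 alternative values, 21 stayed within 1.5 times the reported value or, for widths, within its interval. The width of the Zfhx3 peaks by gene body, added after seeing the data, was 649 bp beside 744 bp by symbol, which puts it below the 674 bp of Glis3. The day 20 peaks of the 5 genes numbered 95 by symbol and 123 by gene body, but 50 when only peaks at least as wide as the list median were kept. Unassigned peaks rose from 0 in the spans to 12 in the gene bodies, all in Zfhx3. The density in Zeb2 fell from 11.6 per 100 kb over the span of its peaks to 7.47 over the gene body, which follows from the longer stretch. Over their spans Glis3 had 11.2, Zfhx3 8.68, Trps1 6.27 and Zeb1 2.60. By span Zeb2 was thus the densest, and by gene body Glis3 was, so the order depends on the measure. The 2 shared peaks were counted under every overlap rule. No replicate could be left out, since each list merges its libraries. No paired analysis was possible because each stage has 1 merged list. Read depth is unknown, so a missing peak is not evidence of missing 5hmC.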
